A study of Mus musculus with 24 samples.

Results

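CTCF and cohesin fold chromosomes into loops. Their mRNAs were followed in cultured lymphoid progenitor cells in which *Cbfb*, *Ctcf* or *Med12* had been targeted. The 10 genes examined were *Ctcf*, the cohesin core genes *Rad21*, *Smc1a*, *Smc3*, *Stag1* and *Stag2*, the loading gene *Nipbl*, and the genes *Wapl*, *Pds5a* and *Pds5b*, whose products act in cohesin release. They were taken by gene symbol from the tables of both experiments, which list 55487 genes each, and all 10 were found once per table and passed the filter on low values. The 24 libraries form 8 groups of 3. In the first experiment lymphoid progenitors (LPs) and Phase 1 cells carried sgControl or sgCbfb, and in the second LPs carried sgControl, sgCbfb, sgCTCF or sgMed12. All were made from Cas9-LP cells, established from fetal liver of mice that lack *Ebf1* and carry Cas9 knocked into *Rosa26*. The sgControl cells therefore share both alterations. LPs were grown on OP9 stroma, and Phase 1 cells had been moved to OP9-DLL4, stroma that presents the Notch ligand DLL4. By the paper's account Notch stimulation covered only part of the 5 days between transduction and sorting. Each gene was targeted with pooled sgRNA vectors that also encode hNGFR, sgControl is directed at luciferase, and the hNGFR+CD45+ cells were sorted 5 days after transduction. The sorted cells are therefore a mixture of edits. Whether all 24 libraries came from 1 line is not stated, and the P values measure the spread between libraries of a group.

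Cohesin is a ring of SMC1A, SMC3 and RAD21 with either STAG1 or STAG2 attached. NIPBL loads the ring and drives it along DNA, CTCF bound at its sites stops it and thereby anchors loops and insulates neighbouring domains, and WAPL with the PDS5 proteins takes the ring off again. The same ring holds sister chromatids together until mitosis. In lymphoid cells this machinery is best known for folding the antigen receptor loci.

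Most differences among these genes were small. *Stag1* mRNA rose 1.75-fold in LPs that carried sgCTCF, and *Stag2* and *Rad21* fell while *Pds5a* rose in LPs that carried sgMed12. *Stag1* is the only member that kept its call under every alternative tried, and the 300 bases around its RefSeq start, 250 before it and 50 from it on, are shown beside those of *Ctcf*, the gene that was targeted. Both are on the plus strand of GRCm38.p6, at chr9:100643198-100643497 for *Stag1* and chr8:105636288-105636587 for *Ctcf*, and capitals mark each CCCTC, the short word that gave CTCF its name, on either strand (GAGGG on the strand shown).
Stag1: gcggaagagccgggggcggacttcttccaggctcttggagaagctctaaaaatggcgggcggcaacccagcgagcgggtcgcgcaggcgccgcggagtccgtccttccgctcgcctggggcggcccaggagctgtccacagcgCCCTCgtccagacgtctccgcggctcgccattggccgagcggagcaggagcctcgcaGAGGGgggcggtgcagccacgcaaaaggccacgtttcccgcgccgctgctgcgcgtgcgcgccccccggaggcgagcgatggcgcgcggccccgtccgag
Ctcf: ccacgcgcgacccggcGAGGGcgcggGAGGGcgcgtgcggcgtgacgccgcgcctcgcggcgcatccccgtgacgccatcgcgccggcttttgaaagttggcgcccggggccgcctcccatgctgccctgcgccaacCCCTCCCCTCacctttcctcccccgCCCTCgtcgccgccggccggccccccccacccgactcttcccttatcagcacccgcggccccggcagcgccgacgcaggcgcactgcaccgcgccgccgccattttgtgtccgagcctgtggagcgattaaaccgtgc
The *Stag1* window holds 2 matches to CCCTC and the *Ctcf* window 5, and 65.95% of the 32851 RefSeq promoters of this length hold at least 1. The RUNX words TGTGGT and TGCGGT, searched on both strands because CBFB is the partner that RUNX factors need, were in neither window, against 22.41% of all promoters. G and C made up 73.7% of the *Stag1* window and 75.3% of the *Ctcf* window, with 43 and 47 CG pairs. Promoters of 7 of the 10 members were available. Among the others of these, *Smc3* also held 2 matches to CCCTC, *Smc1a*, *Pds5a* and *Pds5b* held 1 each and *Wapl* 0. None of them held a RUNX word. The GENCODE span of *Stag1* on chromosome 9 (100597798 to 100959375) begins upstream of the RefSeq start used here.

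The values are CPM from QuantSeq, a gene's share of the reads on all genes, with each read taken near the poly(A) tail of an mRNA. Gene reads per library ran from 1363263 to 1743319 in experiment 1, and those of experiment 2 from 3354483 to 4326782. The members had 130 to 1610 reads per library in the first and 319 to 3020 in the second, so none was near the limit of detection. *Cbfb*, the first targeted gene, was at 35.7 to 45.9 CPM in LPs with sgCbfb against 75.8 to 92.7 with sgControl in the first experiment, and at 41.6 to 55.4 against 109 to 124 in the second. In Phase 1 cells it was at 44.1 to 63.5 CPM with sgCbfb and 44.7 to 81.3 with sgControl, and these libraries overlapped. *Med12* was at 3.20 to 9.61 CPM with sgMed12 and 4.38 to 6.59 with sgControl, too low to check that label, since edited mRNA can also persist. Among markers of these cells, the 6 lymphoid progenitor genes summed to 1005 to 2128 CPM in every group. Of the B lineage genes *Cd79a* had no read in any library. *Pax5*, the B lineage commitment factor, was at 8.58 CPM on average in sgControl LPs of the second experiment, 22.0 with sgCTCF, 6.30 with sgMed12 and 0.93 with sgCbfb. *Ebf1* itself gave 143 to 403 CPM of 3′ reads, although the label states its deficiency. The 8 stromal genes summed to at most 39.0 CPM and the 4 erythroid genes to at most 2.58. The 9 myeloid genes summed to 407 to 814 CPM with sgCbfb and 49.4 to 113 in all other groups, and the 5 early T genes to 500 to 668 in Phase 1 cells with sgControl against 4.95 to 12.4 in their LPs.

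**Figure D1:**
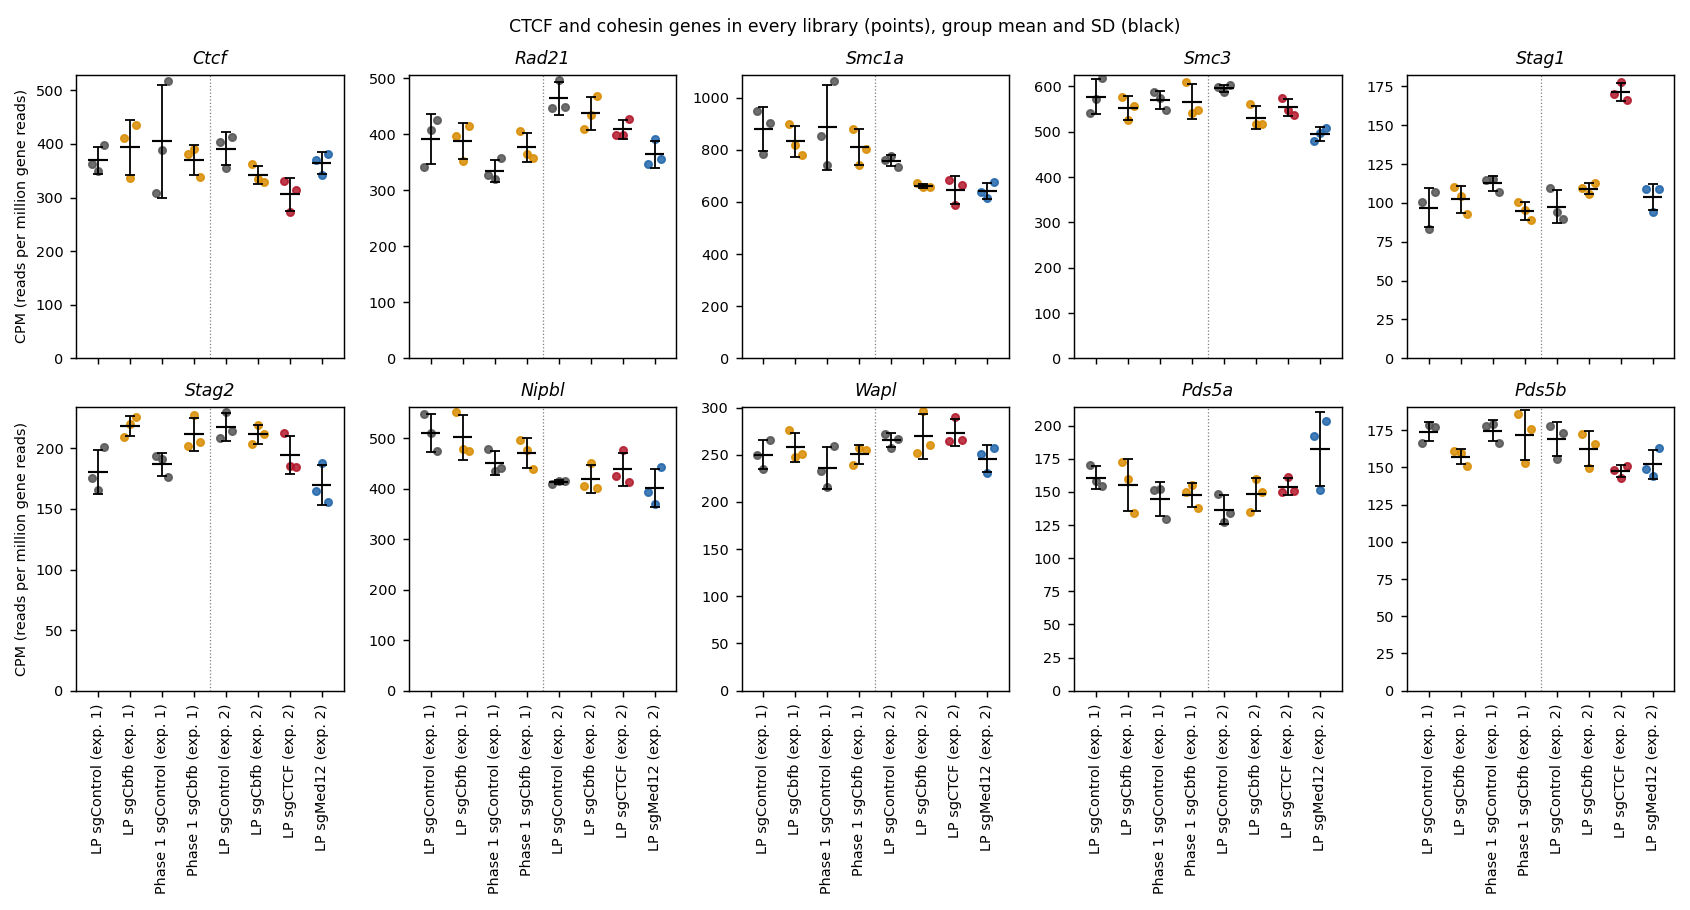
CPM of the 10 genes (vertical axes from 0) in each of 24 libraries (points), by group (horizontal axes), with the group mean and SD in black; the dotted line separates the experiments. The 3 *Stag1* points of sgCTCF lie between 166 and 178 CPM, above the other 21 libraries, which reach 115 CPM at most.

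The question for *Ctcf* was first whether its own mRNA changed when it was targeted, and then whether *Cbfb* loss or Notch signalling moved it. *Ctcf*, on chromosome 8 (105636568 to 105682922, plus strand, GRCm38), was at 404, 356 and 413 CPM in the sgControl LPs of the second experiment. With sgCTCF it was at 330.3, 272 and 314 CPM. The 2 groups did not overlap, but the levels differed by less than 1.3-fold, with means of 391 ± 30.7 and 306 ± 30.0 (SD, n = 3). The log2 fold change was -0.36 (SE 0.10, 95% confidence interval -0.56 to -0.15), with an adjusted P of 0.021 in limma's test on log2(CPM + 1) over 13177 genes with Benjamini-Hochberg adjustment. Without sgCTCF replicate 2 it was -0.28 with an adjusted P of 0.16, and it also lost its call without sgControl replicate 1 (adjusted P 0.099) or 3 (0.11). The reads lie at the 3′ end, so they count transcripts with and without an edit alike, and the loss of CTCF protein cannot be read from them. For protein the paper presents immunoblots of CBFB, CTCF and MED12 after sgRNA transduction as its check of depletion.

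With sgCbfb *Ctcf* was at 362, 335 and 329 CPM in the second experiment, between sgControl and sgCTCF. Its log2 fold change against sgControl was -0.19 (SE 0.10, adjusted P 0.25 in limma), and the libraries of the groups overlapped. With sgMed12 it was at 369.9, 342 and 382 CPM, a log2 difference of -0.10 from sgControl (adjusted P 0.59). In order of the means the groups ran from sgControl through sgMed12 and sgCbfb to sgCTCF, and each overlapped with its neighbour in that order. Between sgCTCF and sgMed12 the libraries did not overlap, and the log2 difference was -0.26 (SE 0.10, adjusted P 0.070).

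In the first experiment *Ctcf* was at 362, 349 and 398 CPM in sgControl LPs and at 309, 388 and 517 CPM in sgControl Phase 1 cells. With sgCbfb it was at 411, 337 and 435 CPM in LPs and at 382, 391 and 338 CPM in Phase 1 cells. All neighbouring groups overlapped. The Phase 1 group with sgControl was the most scattered of any, with an SD of 26.0% of its mean. The log2 fold change with Notch signalling was 0.10 with sgControl (95% interval -0.21 to 0.41, adjusted P 0.76) and -0.09 with sgCbfb (-0.40 to 0.23, adjusted P 0.90), so a change of *Ctcf* mRNA of up to about these bounds could have passed undetected.

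*Stag1* encodes the less abundant of the alternative STAG subunits in many cells, and in sgControl LPs of the second experiment it was at 109, 94.2 and 89.4 CPM. With sgCTCF it was at 170.1, 178 and 166 CPM, so that the lowest sgCTCF library stood well above the highest sgControl library. The means were 97.7 ± 10.5 and 171 ± 5.98 CPM (SD, n = 3). The log2 fold change was 0.81 (SE 0.11, 95% interval 0.58 to 1.04), with an adjusted P of 1.7e-05 in limma. In this comparison 6.13% of all genes tested were higher and 4.20% lower at an adjusted P under 0.05. Among the members *Stag1* was higher, and the 1 that was lower was *Ctcf*, the gene the sgRNAs target. *Stag1* stayed under a log2 ratio of 1, and no member passed the 3 thresholds together (the adjusted P, that ratio, and a mean over 10 CPM), which 1.81% of genes passed upward and 0.622% downward.

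The rise of *Stag1* was particular to sgCTCF among the edits of these cells. With sgCbfb it was at 109, 106 and 113 CPM and with sgMed12 at 109, 94.2 and 109 CPM. Against sgCbfb the log2 difference of sgCTCF was 0.64 (SE 0.11, adjusted P 8e-05 in limma), and against sgMed12 it was 0.72 (SE 0.11, adjusted P 5.8e-05). These comparisons share the sgCTCF libraries and are not independent. Higher genes made up 11.5% and lower genes 10.9% of those tested against sgCbfb, and 11.9% and 8.09% against sgMed12, and *Stag1* was the single member called in each. The remaining 3 groups of this experiment overlapped with each other in order of level.

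Markers of cell types also moved with sgCTCF, and not with sgCTCF alone. Among the 6 lymphoid progenitor genes, 1 was higher and 2 were lower with sgMed12, beside 2.53% and 4.70% of all genes. With sgCbfb in this experiment 3 were higher and 3 lower, beside 6.91% and 5.57%. Also with sgCbfb, 4 of 7 myeloid genes tested were higher, and 2 of 2 B lineage genes were lower. Of 3 early T genes tested with sgCbfb, 1 was higher and 2 were lower. With sgMed12 no gene of these further lists was called. The calls with sgCTCF that follow stand beside 6.13% of all genes higher and 4.20% lower. Of the 5 early T genes 3 passed the filter on low values, and with sgCTCF only *Tcf7*, a T lineage factor, was called. It rose from 2.54 to 18.0 CPM (log2 2.43, adjusted P 4.2e-05). *Pax5* rose (log2 1.27, adjusted P 0.0064) while *Ebf1* fell from 276 to 189 CPM (adjusted P 0.019). Of the 6 lymphoid progenitor genes *Cd34*, a surface antigen of progenitors, fell from 239 to 124 CPM (adjusted P 3.1e-06) and *Flt3*, a cytokine receptor, from 276 to 216 (adjusted P 0.021). Of the 9 myeloid genes 7 were tested, and *F13a1* fell from 6.71 to 2.87 CPM (adjusted P 0.011) and *Mpo* from 5.28 to 1.87 (adjusted P 0.020). Only 4 of the 8 stromal genes were tested and none of these was called, with a lowest adjusted P of 0.065. The 8 summed to 14.1 to 30.3 CPM in the sgCTCF libraries and 0.49 to 27.4 CPM in the sgControl libraries. The part of such differences in cell makeup in the level of *Stag1* was not tested. Of these 8 genes, *Col3a1*, *Dcn*, *Lum* and *Postn* had at most 3 reads in any library. In a search of the last 500 bases of every annotated transcript of the members, no stretch of 75 bases or more with 95% identity or higher to another gene was found for *Stag1*. Such stretches were found for *Pds5a*, *Pds5b*, *Smc3* and *Wapl*, and for *Ctcf* they came from *Agrp* and *Gm5914*, which overlap its exons near the start, far from the 3′ end, on the opposite strand. In the first experiment, where *Ctcf* was not targeted, *Stag1* stayed between 83.0 and 115 CPM in all 12 libraries. Its largest difference there was -0.24 (log2) with sgCbfb in Phase 1 cells, where the groups did not overlap but the adjusted P was 0.44.

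*Stag2*, on chromosome X (42149317 to 42277185, plus strand), encodes the alternative subunit and moved differently. It was at 209, 230.4 and 214 CPM with sgControl, and at 212, 186 and 184 CPM with sgCTCF. The sgCTCF libraries overlapped with sgControl, with a log2 fold change of -0.17 (SE 0.10, adjusted P 0.36 in limma). With sgMed12 it was at 165, 188 and 156 CPM, below all 3 sgControl libraries. Its log2 fold change was -0.36 (SE 0.10, 95% interval -0.57 to -0.15, adjusted P 0.034 in limma). This call was lost in 10 of 22 alternatives. With sgCbfb *Stag2* was at 204, 219 and 212 CPM. The sgMed12 group was lower than this group too, by -0.32 (log2, SE 0.10, adjusted P 0.030 in limma), a call lost in 8 of 22 alternatives. In that comparison of sgMed12 with sgCbfb 9.77% of genes were lower and 7.03% higher, and *Stag2* was the single member called.

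The ratio of *Stag2* to *Stag1* was taken within each library and read only between groups, since the 2 genes may be primed with unequal efficiency. It was 2.24 ± 0.29 with sgControl, 1.93 ± 0.11 with sgCbfb, 1.64 ± 0.30 with sgMed12 and 1.13 ± 0.10 with sgCTCF in the second experiment (SD, n = 3). All 3 sgCTCF libraries had a lower ratio than every library of the other groups, and the log2 difference from sgControl was -0.98. The two-sided exact permutation test gave P = 0.10, the smallest that 3 against 3 libraries allow, and 0.38 after Benjamini-Hochberg adjustment over the 30 ratio tests, so none of these tests could pass 0.05. In the first experiment the ratio was 1.86 ± 0.12 in sgControl LPs, 1.65 ± 0.02 in sgControl Phase 1 cells, and 2.13 ± 0.26 and 2.22 ± 0.19 in the sgCbfb LPs and Phase 1 cells. The Phase 1 groups did not overlap, with a log2 difference of 0.42 (exact permutation P = 0.10), and *Stag1* and *Stag2* lay on opposite sides of zero there.

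**Figure D2:**
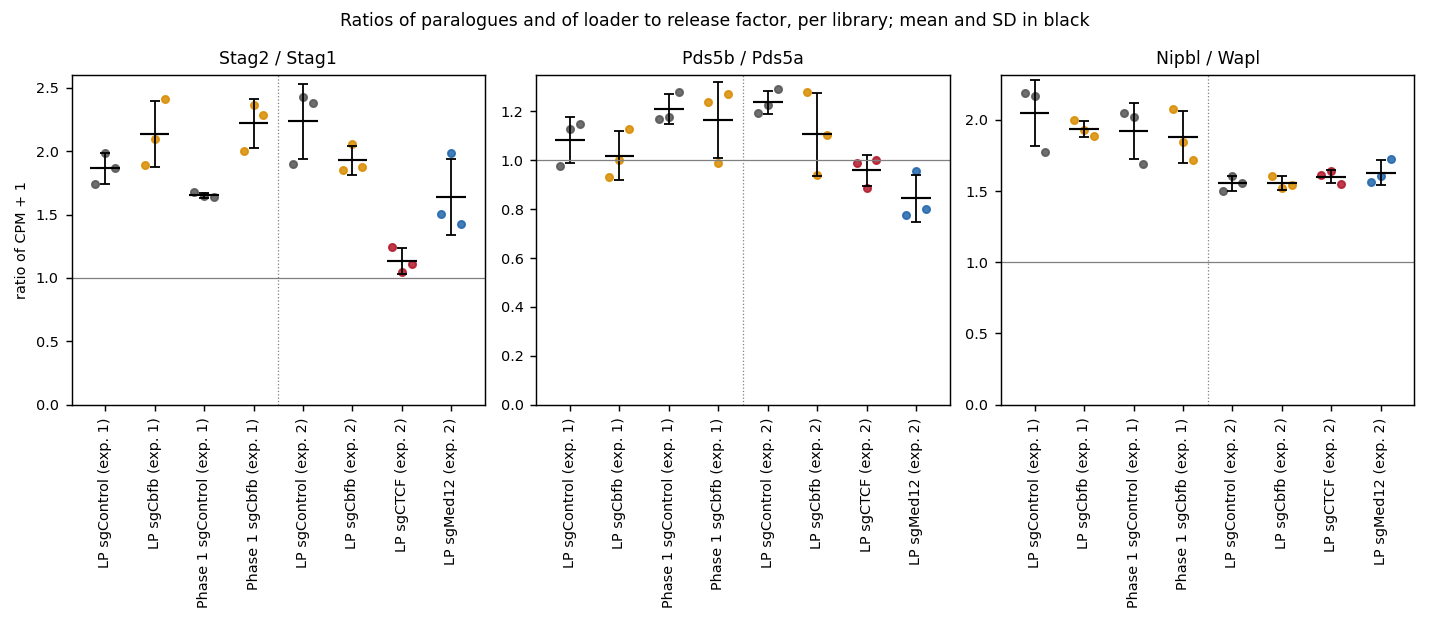
Ratio of CPM + 1 between gene pairs in each library (points; vertical axes from 0), by group, with mean and SD in black and a grey line at 1. The *Stag2* to *Stag1* ratio of sgCTCF averages 1.13 against 2.24 for sgControl, while the *Nipbl* to *Wapl* ratio stays within 1.55 to 1.63 in the group means of the second experiment.

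*Rad21*, on chromosome 15 (51962240 to 51991747, minus strand), encodes the subunit that closes the ring and is cut at anaphase. It was at 447, 498 and 448 CPM with sgControl and at 347, 392 and 355 CPM with sgMed12. The groups did not overlap. The log2 fold change was -0.35 (SE 0.09, 95% interval -0.54 to -0.15, adjusted P 0.028 in limma). *Rad21* lost this call in 10 of 22 alternatives. With sgCTCF it was at 399, 399.6 and 428 CPM, also under every sgControl library, but its log2 fold change of -0.18 (SE 0.09) had an adjusted P of 0.26. With sgCbfb it was at 409.9, 434 and 469 CPM and overlapped with sgControl. The order of means was sgControl, sgCbfb, sgCTCF and sgMed12, and only the last pair did not overlap.

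*Smc1a* and *Smc3*, the ATPase arms of the ring, had the most reads of the members and were highest with sgControl in the second experiment. *Smc1a* was at 762, 777 and 735 CPM with sgControl, and the 9 libraries with an edit of this experiment lay between 587 and 685 CPM. *Smc3* was at 599, 587 and 602 CPM with sgControl and between 480 and 575 CPM in the 9 others. None of these 6 differences passed the test. The log2 fold changes of *Smc1a* were -0.20 with sgCbfb (adjusted P 0.19), -0.23 with sgCTCF (0.11) and -0.24 with sgMed12 (0.11), and those of *Smc3* were -0.17 (0.25), -0.11 (0.53) and -0.27 (0.062). The 3 comparisons share the same 3 sgControl libraries, and are not independent. In the first experiment sgCbfb gave -0.08 for *Smc1a* (95% interval -0.33 to 0.18) and -0.06 for *Smc3* (-0.27 to 0.15) in LPs, and all groups overlapped with their neighbours.

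*Pds5a* and *Pds5b* encode alternative PDS5 proteins, which bind the ring and serve both its release and its upkeep. *Pds5a*, on chromosome 5 (65605721 to 65698273, minus strand), was at 149, 127 and 134 CPM with sgControl and at 192, 151 and 204 CPM with sgMed12. Replicate 2 of sgMed12 lay only just above the highest sgControl library. The log2 fold change was 0.41 (SE 0.12, 95% interval 0.17 to 0.64, adjusted P 0.035 in limma), and the call was lost in 8 of 22 alternatives. With sgCTCF *Pds5a* was at 149.7, 161 and 151 CPM, a log2 change of 0.17 (adjusted P 0.41). *Pds5b* was between 143 and 178 CPM in the 12 libraries of this experiment, and its differences of -0.06 with sgCbfb, -0.19 with sgCTCF and -0.15 with sgMed12 had adjusted P values of 0.82, 0.27 and 0.39. The *Pds5b* to *Pds5a* ratio was 1.24 ± 0.05 with sgControl, 0.96 ± 0.06 with sgCTCF and 0.84 ± 0.10 with sgMed12, and neither edited group overlapped with sgControl (exact permutation P = 0.10 for each).

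*Nipbl* and *Wapl*, which load and release the ring, had the smallest fold range between group means of the second experiment. *Nipbl* was between 369 and 476 CPM and *Wapl* between 230.1 and 297 CPM in the second experiment. The log2 fold changes of *Nipbl* against sgControl were 0.02 with sgCbfb, 0.08 with sgCTCF and -0.04 with sgMed12, and those of *Wapl* were 0.02, 0.04 and -0.11, with adjusted P values of 0.53 or higher. Their 95% intervals lay within -0.31 and 0.28, which bounds the change that could have been missed at about 1.2-fold. All 3 *Wapl* libraries of sgMed12 were below those of sgControl, by a margin smaller than the spread within sgMed12.

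In all, sgMed12 lowered 2 members and raised 1 at an adjusted P under 0.05, where 4.70% of all genes tested were lower and 2.53% higher. This count was not stable: it was 0 when sgControl replicate 1, 2 or 3, or sgMed12 replicate 1 or 3, was left out, and 1 with edgeR on the recovered reads. With non-overlapping libraries as the criterion, 5 members were lower with sgMed12 and 1 higher, against 11.9% and 9.33% of all genes. With sgCTCF 5 were lower and 2 higher, against 15.1% and 16.0%, and 1 of the 5 was the targeted *Ctcf*. With sgCbfb 2 were lower and none higher, against 15.0% and 15.5%. These shares cover all genes tested, down to 1 CPM in 3 libraries. The lowest member value in the second experiment was 89.4 CPM, so the shares are not matched for level and nothing is read from these counts. By the adjusted P, 0 members were called with sgCbfb in limma, edgeR and DESeq2, where 6.91% of all genes were higher and 5.57% lower, and 1 had an unadjusted P under 0.05 in limma.

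**Figure D3:**
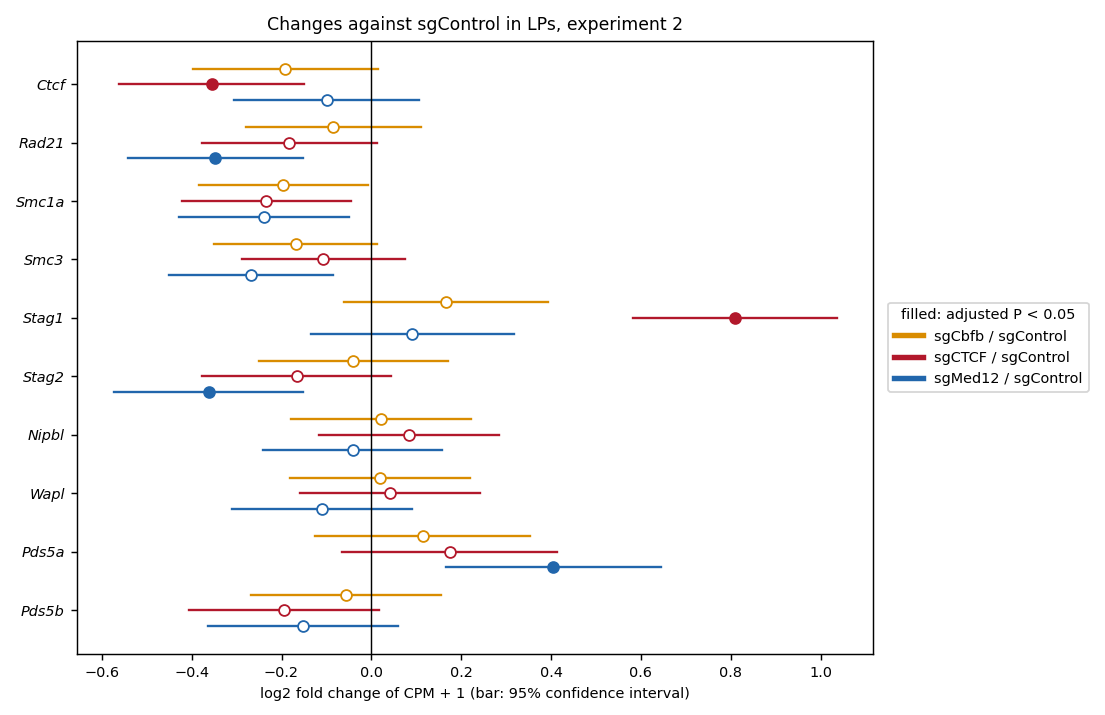
Log2 fold change (horizontal axis) of each gene with sgCbfb, sgCTCF or sgMed12 against sgControl in the second experiment, with 95% confidence intervals; filled points have an adjusted P under 0.05. *Stag1* with sgCTCF stands at 0.81, and the other 29 points lie between -0.36 and 0.41.

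Proliferation genes moved in the same libraries. Cohesin is needed in dividing cells. In these bulk samples fewer dividing cells cannot be told apart from a smaller share of these mRNAs in each cell. Of 17 proliferation genes, 9 were lower with sgMed12, 6 with sgCTCF and 2 with sgCbfb, and none was higher, beside 4.70%, 4.20% and 5.57% of all genes lower. *Rrm2*, a subunit of ribonucleotide reductase, fell from 141 to 87.6 CPM with sgMed12 (log2 -0.74, adjusted P 0.017) and to 77.6 with sgCTCF (-0.86, adjusted P 0.0026). *Top2a*, the mitotic topoisomerase, fell from 2719 to 1968 CPM with sgMed12 (-0.47, adjusted P 0.0090). The summed CPM of the 17 genes was 7448 to 7577 with sgControl, 6669 to 7560 with sgCbfb, 6184 to 6753 with sgCTCF and 5258 to 6271 with sgMed12. The sum of the 10 members was 3492 to 3536, 3271 to 3325, 3241 to 3359 and 3023 to 3251 CPM in the same order. The gene with the most reads, *CT010467.1*, took 7.87 to 8.94% of gene reads with sgControl and 8.84 to 10.34% with sgCbfb. Its share was 9.51 to 11.22% with sgCTCF and 10.78 to 11.69% with sgMed12. A larger share of 1 gene leaves less CPM for the others, and its part in the lower sums was not tested. The part of cell division or of cell makeup in the levels of *Rad21*, *Stag2* and *Pds5a* with sgMed12 was not tested.

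**Figure D4:**
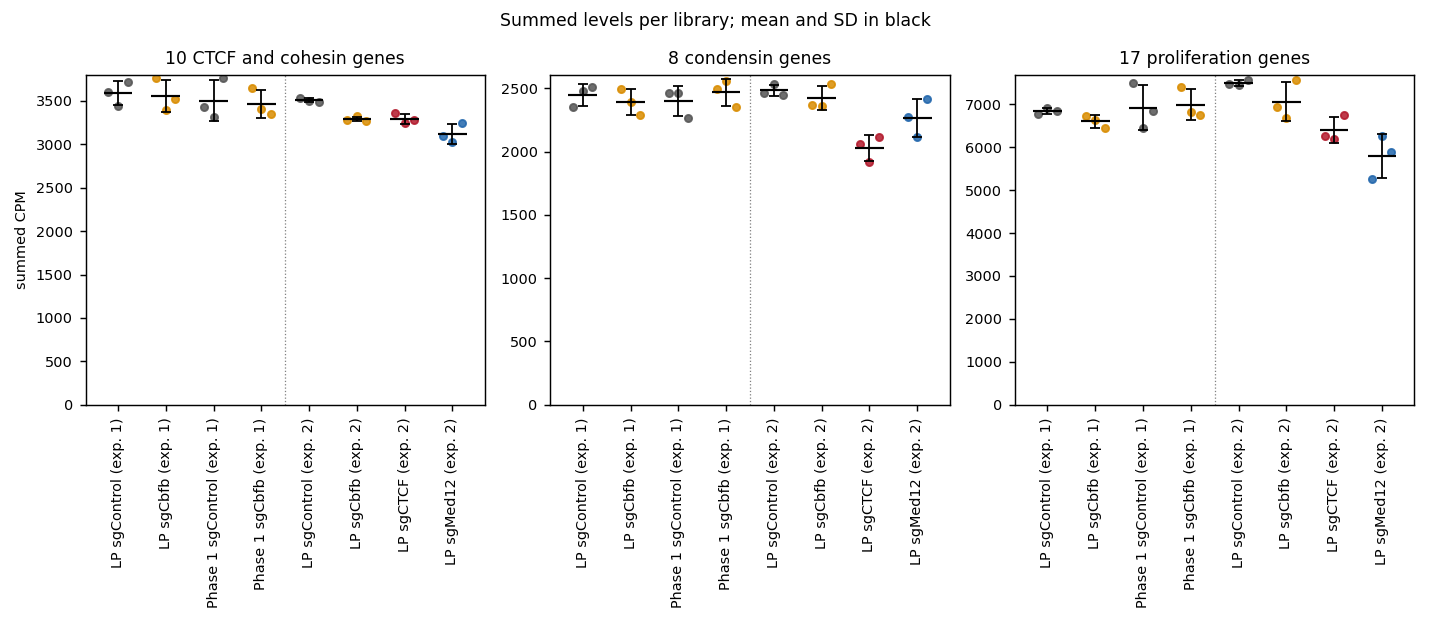
Summed CPM (vertical axes from 0) of the 10 CTCF and cohesin genes, 8 condensin genes and 17 proliferation genes in each library (points), by group, with mean and SD in black. In the second experiment the sgControl libraries reach 3492 to 3536 CPM for the members, above all 9 libraries with an edit, and condensin is lowest with sgCTCF.

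Other machinery of chromosome structure was counted by lists. Condensin, the related complex that compacts mitotic chromosomes, had 3 of 8 genes lower with sgCTCF, where 4.20% of all genes were lower. These were *Smc2*, its ATPase arm, from 476 to 359 CPM (log2 -0.41, adjusted P 0.0063), *Ncapd2* from 667 to 533 (-0.32, adjusted P 0.031) and *Ncapd3* from 78.9 to 55.1 (-0.50, adjusted P 0.020). With sgMed12 1 of the 8 was lower, *Ncaph*, beside 4.70% of all genes, and with sgCbfb none was lower in LPs of either experiment. The median of the list was -0.37 with sgCTCF and -0.10 with sgMed12, beside -0.02 for all genes in both.

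The SMC5/6 complex, which acts in DNA repair, had 1 of 6 genes lower with sgCTCF and 1 with sgMed12, beside 4.20% and 4.70% of all genes, and nothing is read from these counts. *Nsmce4a*, a subunit of that complex, fell from 64.0 to 33.2 CPM with sgCTCF (log2 -0.92, SE 0.14, adjusted P 8.2e-05). With sgMed12 it was *Nsmce1* that fell, from 102 to 72.8 CPM (-0.48, adjusted P 0.032). The median of the list was near zero in both comparisons.

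Among 9 factors that act in looping or bind beside CTCF, 1 was lower with each edit of the second experiment and none was higher, counts too small to set apart from the 5.57% (sgCbfb), 4.20% (sgCTCF) and 4.70% (sgMed12) of all genes that were lower. It was *Maz*, a zinc finger protein, with sgCTCF (71.0 to 46.9 CPM, adjusted P 0.0091), *Yy1*, which bridges enhancers and promoters, with sgMed12 (333 to 258 CPM, adjusted P 0.029), and *Patz1*, a zinc finger protein, with sgCbfb (40.4 to 26.6 CPM, adjusted P 0.0061). Among 9 further regulators of cohesin, *Esco1*, which acetylates SMC3, was lower with sgCbfb (31.9 to 20.1 CPM, log2 -0.65, adjusted P 0.026), and no other passed in a comparison with sgControl. In LPs of the first experiment *Esco1* went from 28.2 to 16.6 CPM with sgCbfb (-0.73, adjusted P 0.33). The 5 germ-line paralogues, *Ctcfl* and the meiotic cohesin genes, summed to at most 13.9 CPM in any library.

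Notch signalling and *Cbfb* loss left the members without a call in the first experiment. Of the 10 genes, 0 passed in each of the 5 comparisons of that experiment with limma, edgeR and DESeq2. At an unadjusted P under 0.05 limma had 1, *Stag2* with sgCbfb in LPs, and none in the other 4. In those LPs *Stag2* was at 175, 166 and 201 CPM with sgControl and at 209, 219.7 and 225 CPM with sgCbfb, a log2 difference of 0.27 (SE 0.12, adjusted P 0.37). In Phase 1 cells it was at 193, 191 and 176 CPM with sgControl and 202, 227 and 205 with sgCbfb (0.18, adjusted P 0.49). With sgCbfb in the second experiment the difference was -0.04 (adjusted P 0.88).

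Over all genes, sgCbfb gave 1.76% higher and 1.09% lower in LPs and 3.37% and 2.60% in Phase 1 cells. Notch signalling gave 3.26% and 3.23% with sgControl and 1.28% and 0.959% with sgCbfb, and the interaction of stage with sgCbfb 0.612% and 0.657%. The largest change of a member with Notch signalling was in *Stag1* with sgControl, from 96.9 to 113 CPM (log2 0.22, 95% interval -0.10 to 0.54, adjusted P 0.45). *Rad21* went from 391 to 335 CPM (-0.22, adjusted P 0.32). Across these 4 simple comparisons no interval reached beyond -0.56 or 0.54, so that changes of 1.5-fold or more were outside the intervals of all members. With sgControl 3 of the 17 proliferation genes were lower in Phase 1 cells (*Ccnb1*, *Ccnb2* and *Plk1*, which act in mitosis) and 1 was higher, *Mcm3*, a subunit of the replicative helicase. The condensin gene *Ncapd2* was lower there as well, from 651 to 446 CPM (adjusted P 0.044).

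**Figure D5:**
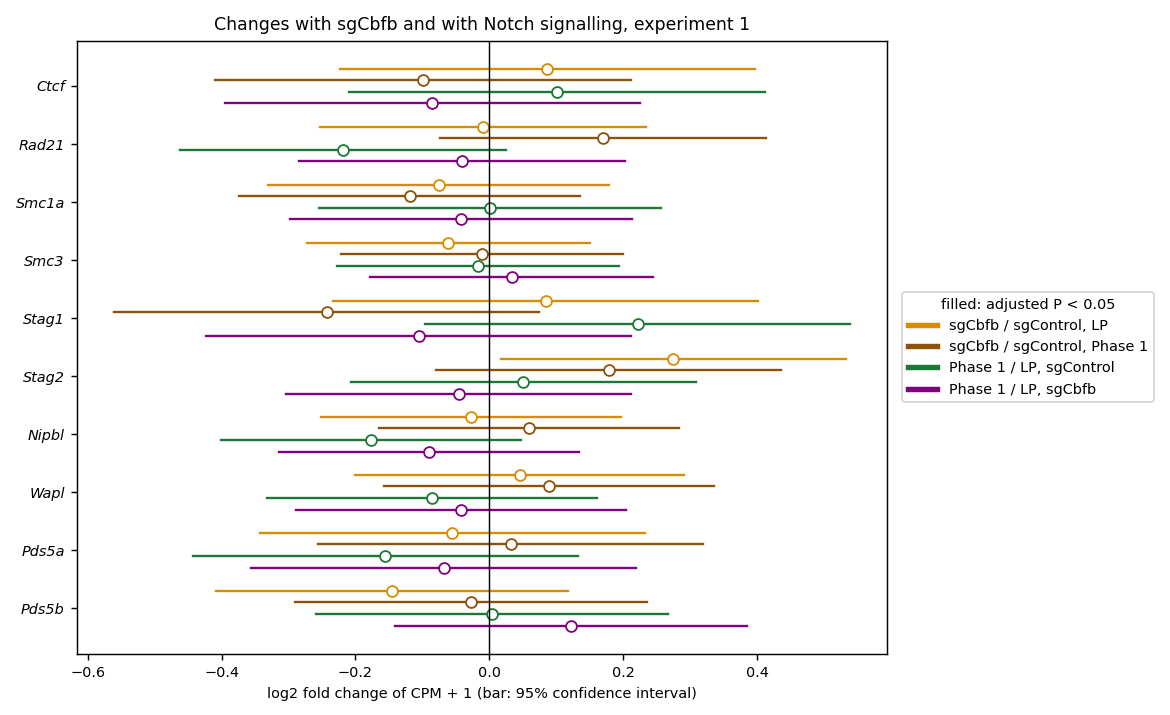
Log2 fold change (horizontal axis) of each gene in the first experiment with sgCbfb in LPs or Phase 1 cells and with Notch signalling in sgControl or sgCbfb cells, with 95% confidence intervals. No point is filled, since no adjusted P was under 0.05, and the points lie between -0.24 and 0.27.

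The genes whose pattern was most like that of *Ctcf* over the 12 libraries of an experiment were found by Pearson's r on log2(CPM + 1) among genes with a mean over 10 CPM. In the second experiment these were *Clspn*, a checkpoint mediator at replication forks (r = 0.94), *Prss16* (0.93) and *Rpl8*, a ribosomal protein (0.90). In the first they were *Gpsm3* (0.89), *A730063M14Rik* (0.89) and *Gm9843* (0.87). No gene was on both lists. The points share libraries and groups, and in the second experiment the spread of *Ctcf* is in part that of its own targeting. Among the members *Pds5b* (0.72) and *Smc1a* (0.69) were nearest to *Ctcf* there and *Stag1* was farthest, at -0.74, while in the first experiment *Stag1* was at 0.12.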

How the data were processed

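QuantSeq values of 24 libraries, 3 in each of 8 groups taken from the sample labels, were analysed and none was left out. Per the labels the authors trimmed reads with fastp and mapped them to mm10 with STAR; the counting tool, annotation and strand setting are not given in the sources used here. The deposited values carry the name TPM but are CPM, not divided by gene length, and whole reads were recovered from them for 100.0% of values within 0.05 read. A final line without a gene name, the value of 1 read, was not used. Of 55487 identifiers 55141 were in GENCODE M21 (GRCm38).

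Genes reaching 1 CPM in 3 or more libraries of an experiment were tested with limma 3.58.1 on log2(CPM + 1), 4 groups in a single fit with a variance trend, and Benjamini-Hochberg adjustment. Fold changes on this scale understate those of low genes. A member passed at an adjusted P under 0.05. Ratios were compared with exact permutation tests in scipy 1.17.1, transcript ends with blastn 2.17.0, and promoters were RefSeq's. edgeR 4.0.16 and DESeq2 1.42.0 were run on the recovered reads as alternatives, together with other pseudocounts, filters, scalings and fits and each library left out. The fits were tested on simulated data. All members are described, library by library where they passed or were targeted, and genes of other lists are named where they passed, at most 3 per list and comparison. Members and lists were chosen with earlier results of these data known. Same-numbered replicates were not paired: their deviations correlated between -0.063 and 0.111.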

Additional observations from a re-analysis of the deposited data

How the results depend on the processing

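*Stag1* kept its call in all 22 alternatives of each of its 3 comparisons, with log2 fold changes of 0.75 to 0.89 against sgControl. *Ctcf* with sgCTCF was -0.36 (adjusted P 0.054) without moderated variances and -0.42 to -0.28 with 1 library left out. The count of members passing with sgCTCF was 1 without moderated variances and 1 to 2 with a library left out. With sgMed12 it was 0 without a filter on low values and with only the groups compared. It was 1 with median-of-ratios scaling, without moderated variances and with edgeR, and 0 to 3 with a library left out. Without moderated variances the 1 member was none of *Rad21*, *Stag2* and *Pds5a*. *Rad21* and *Stag2* each lost their call in 10 of 22 alternatives and *Pds5a* in 8, with no change of sign. With sgCbfb in the second experiment it was 1 (*Smc3*) without moderated variances. For sgCTCF against sgMed12 it was 2 without moderated variances, with the replicate block and with DESeq2, and 1 to 4 with a library left out. For sgMed12 against sgCbfb it was 2 with only genes over 10 CPM, without moderated variances, with the replicate block and with DESeq2, 0 with median-of-ratios scaling, with only the groups compared and with edgeR, and 0 to 3 with a library left out. The replicate block changed no other count; same-numbered samples shared only a number. The causes were not tested. Depth limits the first experiment most, where an undetected gene could reach 1.72 to 2.20 CPM by counting error alone, against 0.693 to 0.894 CPM in the second.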
